A study of Homo sapiens with 8 samples.

Results

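The 35 genes described here make cholesterol and fatty acids or control that synthesis. They were chosen by name, with earlier results of these data known, so their shares of calls are not an independent test. The set comprises 7 enzymes of the mevalonate pathway, 11 enzymes that turn its product into sterols, 5 regulators, 3 genes of sterol transport and receptor turnover, and 9 genes of fatty acid and glycerolipid synthesis. All 35 were among the 37526 gene names listed for every library, and 34 of them had counts. Not every enzyme of the pathway was analysed here.

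RNA-seq was performed in NB4, an established human line of acute promyelocytic leukemia (APL). Its cells express the PML/RARα fusion and differentiate toward granulocytes under all-trans retinoic acid (ATRA). The 8 libraries formed 4 groups of 2. Scramble cells carried the control vector, which GEO's labels call an empty vector and the methods a scrambled shRNA. shKDM3B cells carried a stably integrated shRNA against KDM3B, a demethylase of mono- and dimethylated lysine 9 of histone H3. The paper describes 2 such shRNAs, and neither it nor the sample titles say which of them these libraries carried. Scramble+ATRA and shKDM3B+ATRA cells carried the same vectors and received 1 µM ATRA for 24 or 48 hours, and the labels do not say which time applies to which library. All cells were stably transduced NB4 grown in the same medium with serum, so the groups are a model in a single line. No source used here says whether the replicates were separate cultures, so every P value measures only the spread between these libraries.

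Cells adjust this pathway through sterol regulatory element-binding proteins (SREBPs), encoded by SREBF1 and SREBF2. When sterols in the endoplasmic reticulum are low, the escort protein SCAP carries the SREBPs to the Golgi, where they are cleaved and released to the nucleus to switch on the synthesis genes. When sterols are high, INSIG1 and INSIG2 hold SCAP back, and INSIG1 is itself an SREBP target. SREBP-2 is best known for cholesterol genes and SREBP-1 for fatty acid genes, and leukemic blasts, like other dividing cells, need both products for membranes.

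Gene counts summed to between 9708739 and 33017787 per library. Reads outside annotated genes made up 8.49% to 9.62% in the untreated libraries and 9.36% in scramble+ATRA replicate 1, but 50.02% to 51.45% in the other 3 ATRA libraries. Here and below, this share is of the uniquely aligned read pairs only. Levels are given as CPM, counts scaled to the depth of each library, on the trimmed mean of M-values (TMM) scale of edgeR, and levels of different genes are compared only as CPM per kilobase of exon. KDM3B itself was at 183 and 183 CPM in scramble, 74.0 and 84.0 in shKDM3B, 194 and 121 in scramble+ATRA, and 51.7 and 56.5 in shKDM3B+ATRA, so the knockdown libraries were below the scramble libraries at both stages. Its log2 fold change was -1.21 (adjusted p = 0.068 by edgeR) without and -1.53 (adjusted p = 0.50) with ATRA. The myeloid markers MPO, CTSG, CD33, CEBPA and SPI1 were present, whereas the promyelocyte granule genes ELANE, AZU1 and PRTN3 did not exceed 1.45 CPM in any library. The erythroid markers HBA1 and HBB were at 0 in all libraries, and the summed level of the 3 T cell markers did not exceed 1.47 CPM. That of the 3 B cell markers, 1 of which was at 0 in all libraries, was 3.54 to 4.98 CPM without and 13.4 to 24.0 with ATRA, 2 of them being called higher with ATRA in both backgrounds. That of the 3 epithelial markers was 17.3 to 24.8 CPM in all libraries, with 1 called higher with ATRA in both backgrounds. Their part in the members' results was not tested. In bulk RNA, a smaller share of cells and less RNA per cell cannot be told apart.

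Promoter sequences are shown for the 5 genes with the lowest P between shKDM3B and scramble cells among those for which a sequence was used, because the results turn on them. Each is the 250 bases before the RefSeq transcript start, read in the direction of transcription, at chr4:165327419-165327668 on the plus strand for MSMO1, chr5:43313413-43313662 on the minus strand for HMGCS1, chr7:155297628-155297877 on the plus strand for INSIG1, chr5:111512536-111512785 on the minus strand for STARD4 and chr10:100346983-100347232 on the plus strand for SCD of GRCh38.p14. Capitals mark the CCAAT box in either orientation (CCAAT, or ATTGG on the opposite strand), the site known for the factor NF-Y, which is known to act beside SREBPs.
MSMO1: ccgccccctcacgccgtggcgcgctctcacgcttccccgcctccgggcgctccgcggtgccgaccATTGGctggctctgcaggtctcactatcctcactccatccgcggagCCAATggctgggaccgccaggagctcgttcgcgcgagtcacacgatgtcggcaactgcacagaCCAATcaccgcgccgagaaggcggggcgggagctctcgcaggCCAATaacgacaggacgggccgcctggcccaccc
HMGCS1: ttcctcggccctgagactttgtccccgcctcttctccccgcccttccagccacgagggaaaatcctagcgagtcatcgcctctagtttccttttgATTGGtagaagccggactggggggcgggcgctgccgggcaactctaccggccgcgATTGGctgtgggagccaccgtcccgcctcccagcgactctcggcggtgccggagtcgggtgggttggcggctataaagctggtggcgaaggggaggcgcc
INSIG1: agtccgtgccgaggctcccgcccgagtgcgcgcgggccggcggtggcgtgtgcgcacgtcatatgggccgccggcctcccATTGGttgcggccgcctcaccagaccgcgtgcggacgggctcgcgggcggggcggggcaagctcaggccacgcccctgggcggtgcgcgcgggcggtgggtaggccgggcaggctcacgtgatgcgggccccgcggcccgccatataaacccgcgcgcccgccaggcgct
STARD4: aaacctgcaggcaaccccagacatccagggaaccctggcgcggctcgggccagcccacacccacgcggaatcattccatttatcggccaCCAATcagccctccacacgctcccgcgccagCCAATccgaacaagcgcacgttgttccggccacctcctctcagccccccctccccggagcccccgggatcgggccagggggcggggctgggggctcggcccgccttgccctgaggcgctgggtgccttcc
SCD: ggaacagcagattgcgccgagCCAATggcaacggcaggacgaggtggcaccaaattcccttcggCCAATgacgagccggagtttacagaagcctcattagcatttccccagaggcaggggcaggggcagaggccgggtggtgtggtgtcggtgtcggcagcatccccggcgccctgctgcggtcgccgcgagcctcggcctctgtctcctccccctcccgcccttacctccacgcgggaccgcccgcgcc
MSMO1 held 4 matches, the most of these 5, and INSIG1 held 1. A window was available for 31 of the 35 genes (not for SQLE, FDFT1, FASN and ACAT2). These 31 genes had 44 windows, since some have more than 1 RefSeq start, and a gene counted as holding a motif if any of its windows did. For HMGCS1, 1 of its windows is shown. Of the 31 genes, 21 (67.7%) held a CCAAT box on either strand, against 37.0% of the 27305 genes with a window and 41.6% of the 9149 of those that were tested for expression. The GC box (GGGCGG, either strand), the site known for Sp1, was found in 30 of 31 (96.8%), against 46.2% of all genes and 73.8% of tested genes. The E-box (CACGTG), which SREBP-1 can also bind, was found in 3 of 31 (9.68%), against 7.73% and 11.5%.

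The sterol regulatory element itself was searched as TCACNCCAC and as the shorter CACCCCAC, which overlap, on both strands. SREBF2 alone of the 31 genes held either in any window, against 1.09% of all genes for the longer and 2.97% for the shorter form. Its window, chr22:41832855-41833104 on the plus strand of GRCh38.p14, is shown for that match, with the element and the CCAAT box in capitals.
SREBF2: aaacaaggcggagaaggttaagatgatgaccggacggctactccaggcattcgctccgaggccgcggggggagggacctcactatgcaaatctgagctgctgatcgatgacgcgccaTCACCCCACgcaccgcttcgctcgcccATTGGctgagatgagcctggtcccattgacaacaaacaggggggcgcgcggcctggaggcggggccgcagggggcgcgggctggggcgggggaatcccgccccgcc
These matches are letters in a fixed window and say nothing of binding in NB4 cells.

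In scramble cells the pathway was led by fatty acid genes. Per kilobase of exon, SCD, the desaturase that makes oleate, had the highest mean level (97.7 CPM per kb, with 48.8 and 147 in the libraries). ACLY, which makes cytosolic acetyl-CoA from citrate, followed at a mean of 89.8 CPM per kb, and FASN, the fatty acid synthase, at 80.9. SCD, ACLY and FASN cannot be ordered, since the scramble libraries differed more for SCD than their means differ. The next were EBP, a sterol isomerase, at 49.99 CPM per kb, FDPS, which makes farnesyl diphosphate, at 38.1, and FDFT1, the squalene synthase, at 29.8. The lowest of the 34 genes with counts was ACACA, an acetyl-CoA carboxylase that feeds FASN, at 1.08 CPM per kb. CYP51A1, the sterol 14-demethylase, was listed at 0 in all 8 libraries. Exons of other genes cover 74.1% of its exon length in GENCODE v44, 68.2% on the same strand, and how the counting treated such reads was not tested.

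The members differed between scramble replicates more often than names in general did, and this bears on each comparison with scramble libraries. In scramble replicate 2, 15 of the 34 genes were at least 1.5-fold higher than in replicate 1 and 0 were at least 1.5-fold lower, whereas over 12835 names the shares were 9.40% and 7.75%. In scramble+ATRA, 20 were at least 1.5-fold higher in replicate 2 and 1 lower, against 16.4% and 15.6% over all names. The shKDM3B libraries had 1 such gene higher and 3 lower, against 8.23% and 7.80% over all names. The shKDM3B+ATRA libraries had 1 higher and 0 lower, against 7.54% and 6.16%. INSIG1 had the widest gap in scramble cells, 4.15-fold, followed by FADS2 at 3.83-fold, LSS at 3.09-fold and SCD at 3.0-fold. The median over the 34 genes was 0.46 on the log2 scale in scramble and 0.69 in scramble+ATRA, against 0.09 in shKDM3B and -0.06 in shKDM3B+ATRA. What set the replicates apart was not tested.

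**Figure D1:**
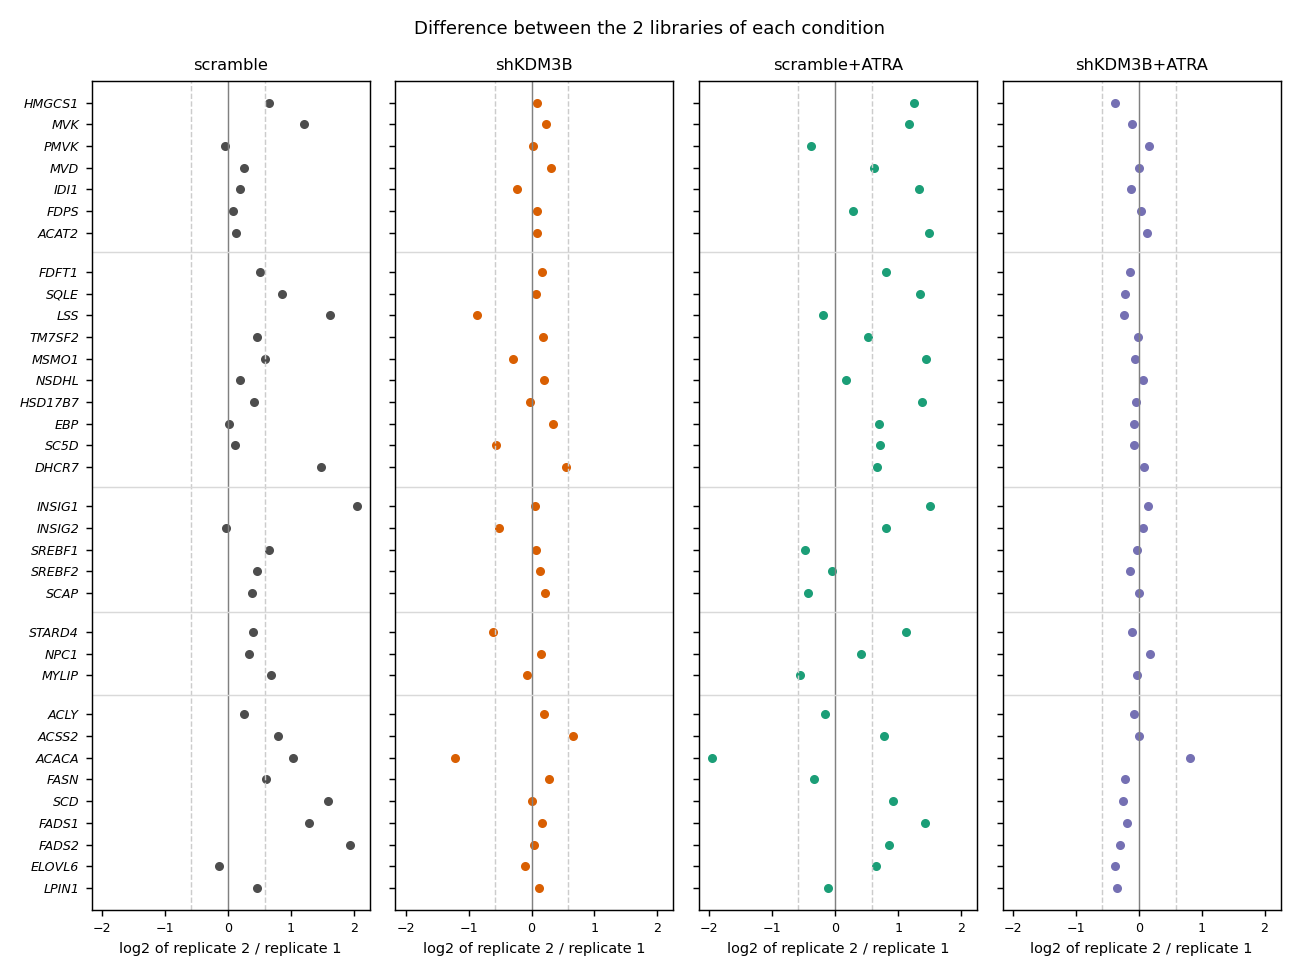
Log2 ratio of replicate 2 to replicate 1 for the 34 genes in each of the 4 groups, with dashed lines at 1.5-fold in either direction. In scramble and scramble+ATRA most points lie to the right of 0, with medians of 0.46 and 0.69, whereas in shKDM3B and shKDM3B+ATRA they lie around 0.

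Knockdown of KDM3B in untreated cells went with higher levels of MSMO1, HMGCS1, INSIG1, STARD4, SCD and 7 other members, while no member was called lower. A gene was called higher or lower where edgeR's quasi-likelihood test gave an unadjusted P under 0.05 and the change was at least 1.5-fold. By that rule 12 of 34 members were called higher and 0 lower in shKDM3B against scramble, where 3.48% of the 13855 names tested were called higher and 3.53% lower. The log2 fold change was above 0 for 32 of 34, with a median of 0.56, against a median of 0.00 over all names. For 25 members the lower shKDM3B library was above the higher scramble library, which held for 21.2% of names. None of the 34 passed the Benjamini-Hochberg adjustment in this edgeR fit, where the lowest adjusted p was 0.11, but without the low-count filter 16 were called higher and 13 of them passed it, where 2.76% of all names were called higher and 555 of 24092 were still called in either direction after adjustment. At an unadjusted P under 0.05, edgeR found 17 members and 10.2% of all names. DESeq2 placed 3 members higher and 0 lower after adjustment, of 273 names in either direction. With 2 libraries against 2, an exact two-sided permutation test of a single gene cannot go below 0.333.

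The count rested heavily on the scramble libraries. Without scramble replicate 1, 5 members were called higher (HMGCS1, INSIG1, MSMO1, SCD and STARD4, all among the 12), with a median log2 fold change of 0.30, where 3.35% of all names were called higher. Without scramble replicate 2, 23 were called, with a median of 0.88, where 6.73% of all names were. After adjustment by edgeR 4 higher calls were left in the first case and 18 in the second, where 195 of 14524 and 632 of 14282 names were left in either direction. In both cases 0 were called lower. Here and wherever a library is left out, the library that remains alone in its group was assumed to vary as the other group or groups of the fit did. In the same comparison ITGAM and CYBB, 2 of the 4 differentiation markers analysed (with ITGAX and CD38), were called lower and MPO higher; the summed level of the 4 was 447 to 468 CPM in scramble and 332 to 345 in shKDM3B. CD38 went the other way, at 113 and 105 CPM in scramble and 132 and 154 in shKDM3B, under 1.5-fold (0.40, adjusted p = 0.42). ITGA2B, a megakaryocyte marker, was called lower at -1.51 (adjusted p = 0.17), and the summed level of the 3 megakaryocyte markers was 7.42 to 7.64 CPM in scramble and 1.69 to 3.50 in shKDM3B. The part of these markers in these results was not tested.

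In the mevalonate pathway, 1 of 7 members was called higher in shKDM3B cells. HMGCS1, which condenses acetyl-CoA units into HMG-CoA, was at 66.6 and 105 CPM in scramble and 183 and 195 in shKDM3B. Both knockdown libraries were above both controls, by a log2 fold change of 1.14 ± 0.22 (SE, adjusted p = 0.12). The exons of an opposite-strand gene cover 37.7% of its exon length, and the strand setting of the counting is not given in the sources used here. MVK, the mevalonate kinase, was at 10.5 and 24.2 CPM in scramble and 24.2 and 28.3 in shKDM3B, and its change of 0.60 ± 0.35 did not pass (adjusted p = 0.65). IDI1, the isopentenyl diphosphate isomerase, was at 41.0 and 46.7 CPM against 69.1 and 58.9, with a change of 0.55 (adjusted p = 0.29). PMVK, the phosphomevalonate kinase, was 1 of 2 members below 0 (-0.26, adjusted p = 0.73), the other being ELOVL6 (-0.14, adjusted p = 0.87).

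Among the sterol steps, 4 of 10 genes with counts were called higher. MSMO1, the sterol C4-methyl oxidase, was at 8.72 and 13.1 CPM in scramble and 35.1 and 28.7 in shKDM3B. The groups did not overlap, and the change of 1.55 ± 0.25 had the lowest P of all 34 members (adjusted p = 0.11 by edgeR). FDFT1, which commits the pathway to squalene, was at 125 and 177 CPM against 229 and 257, a change of 0.68 ± 0.19 (adjusted p = 0.24). DHCR7, which carries out the last step to cholesterol, and SQLE, the squalene epoxidase, were called at 1.07 and 0.65, but neither was called without scramble replicate 1, at 0.51 and 0.29, or with all 8 libraries in 1 fit. Without scramble replicate 2 they were at 2.0 and 1.15. LSS, the lanosterol synthase, overlapped between groups (9.45 and 29.2 CPM against 44.6 and 24.4) and did not pass (0.83 ± 0.48, adjusted p = 0.64). It was at 0.24 without scramble replicate 1 and at 1.87 without replicate 2, and was called in the latter case, without shKDM3B replicate 2 and without a low-count filter. TM7SF2, NSDHL and EBP, a sterol reductase, dehydrogenase and isomerase, stayed between 0.03 and 0.15 and did not pass.

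INSIG1 had the largest change of the 5 regulators and of all 34 members. It was at 24.8 and 103 CPM in scramble and at 270 and 280 in shKDM3B. The knockdown libraries were close to each other and above both controls, which were not close, so that the log2 fold change was 2.10 ± 0.52 (adjusted p = 0.19), 1.42 without scramble replicate 1 and 3.48 without replicate 2. INSIG2, its paralog, was at 16.4 and 16.03 CPM in scramble and 26.0 and 18.1 in shKDM3B (0.44 ± 0.23, adjusted p = 0.59).

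The genes of the SREBPs and of SCAP were not called in the plain fit of the 4 libraries. With the replicate number as a block, SREBF1 alone of the 3 was called higher. SREBF1 was at 84.5 and 134 CPM in scramble and 158 and 165 in shKDM3B (0.56 ± 0.22, adjusted p = 0.41, unadjusted P under 0.05 but under 1.5-fold). SREBF2 was at 105 and 144 CPM against 167 and 184 (0.49 ± 0.18, adjusted p = 0.40, unadjusted P under 0.05 but under 1.5-fold), and SCAP at 102 and 134 CPM against 134 and 154 (0.29 ± 0.18, adjusted p = 0.67). For each of the 3 genes the lower shKDM3B library was above the higher scramble library, for SCAP only at 133.82 against 133.80 CPM. Without scramble replicate 2, SREBF1 and SREBF2 were called higher, at 0.94 and 0.75, against 0.27 and 0.28 without replicate 1. SREBF1 was also called without shKDM3B replicate 1.

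In sterol transport, STARD4, which moves cholesterol between membranes, was at 16.7 and 22.1 CPM in scramble and 45.6 and 29.9 in shKDM3B. Its groups did not overlap, and it was called higher (0.96 ± 0.25, adjusted p = 0.21; 0.62 without shKDM3B replicate 1). NPC1, the lysosomal cholesterol exporter, was at 17.4 and 22.0 CPM against 25.8 and 28.5 (0.47 ± 0.20, adjusted p = 0.49, unadjusted P under 0.05 but under 1.5-fold). MYLIP, a ubiquitin ligase that removes the lipoprotein receptor, did not pass (0.43, adjusted p = 0.62).

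In lipogenesis, 5 of 9 were called higher. SCD was at 256 and 768 CPM in scramble and 1302 and 1302 in shKDM3B. It is given in full after its values were seen, since the knockdown libraries matched while the controls differed 3.0-fold, and its change was 1.35 ± 0.41 (adjusted p = 0.28), 0.76 without scramble replicate 1 and 2.36 without replicate 2. LPIN1, a phosphatidate phosphatase of triglyceride synthesis, was at 15.9 and 21.8 CPM against 28.5 and 31.1 (0.66 ± 0.21, adjusted p = 0.32). ACACA was at 9.21 and 18.8 CPM against 39.1 and 16.9, and its groups overlapped although it was called (0.99 ± 0.43, adjusted p = 0.49). Its change was 0.27 without shKDM3B replicate 1, 0.57 without scramble replicate 1 (not called in either case) and 1.61 without scramble replicate 2. FASN and ACSS2, the cytosolic acetyl-CoA synthetase, were called at 0.60 and 0.82, and were not called without scramble replicate 1 at 0.33 and 0.47, nor without shKDM3B replicate 2. Without scramble replicate 2 they were at 0.94 and 1.28. FDFT1 and LPIN1 were likewise not called without scramble replicate 1, at 0.45 and 0.46. ACACA and FASN were not called with library size alone or upper-quartile scaling, ACACA, SCD and DHCR7 were not called by DESeq2, and ACACA and ACSS2 were not called with all 8 libraries in 1 fit. FADS1 and FADS2, the desaturases of polyunsaturated fatty acids, did not pass (adjusted p = 0.66 for FADS1 and adjusted p = 0.76 for FADS2): in FADS2 scramble replicate 2 was above both shKDM3B libraries, at 332 CPM against 315 and 322.

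**Figure D2:**
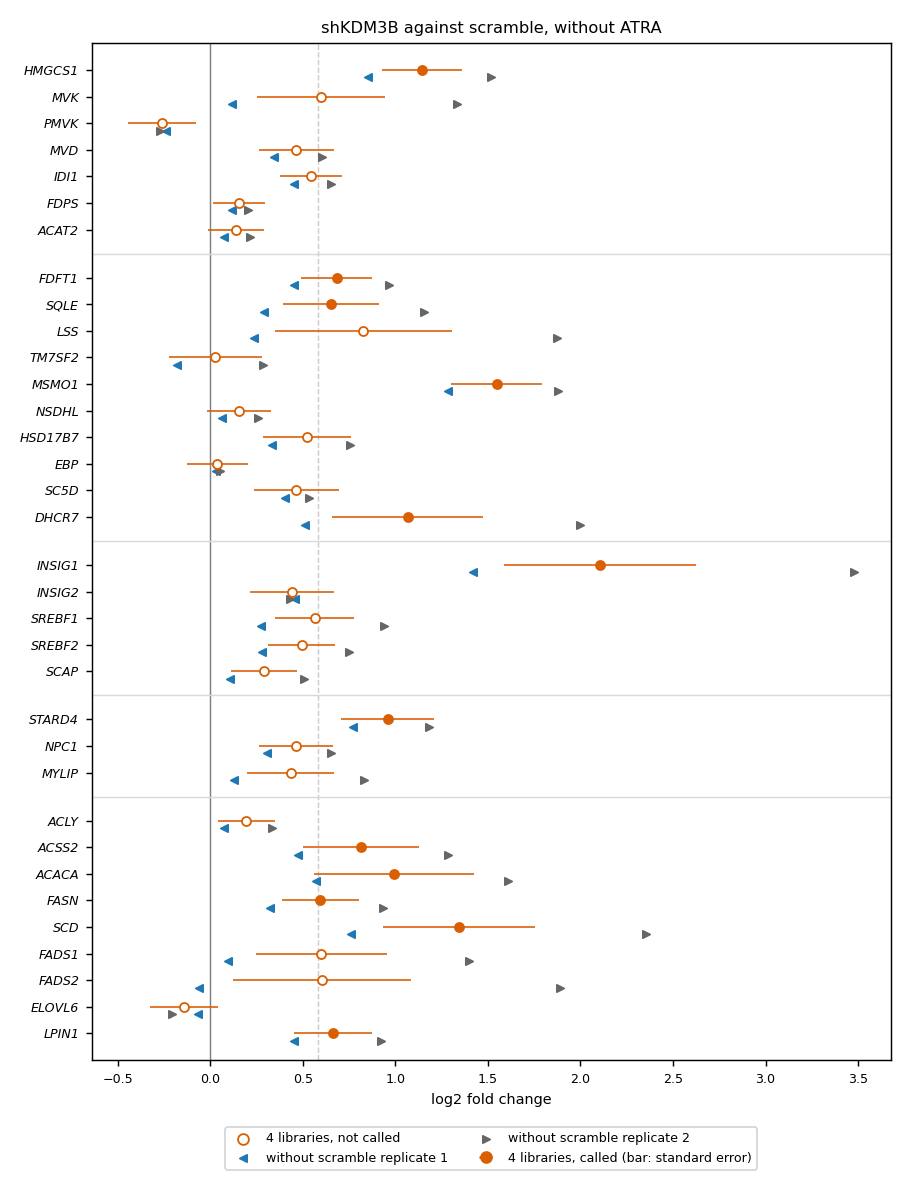
Log2 fold change of shKDM3B against scramble without ATRA for the 34 genes, with bars for the standard error and a dashed line at 1.5-fold. Filled circles are the 12 called genes, and triangles give the value without scramble replicate 1 (left-pointing) or replicate 2 (right-pointing). INSIG1 spans 1.42 to 3.48 between the triangles, and MSMO1 spans 1.29 to 1.88.

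A list of 41 further genes of the same pathways and their close paralogs, of which 34 were tested, was read in the same comparison. This list too was chosen with earlier results of these data known. None was called in either direction by edgeR, where 3.48% of all names were called higher and 3.53% lower, so 0 of 34 is near those shares. DESeq2 called none either, where 2.93% and 2.79% of all names were called. In edgeR 3 of 34 had an unadjusted P under 0.05 (MBTPS1, MBTPS2 and ELOVL5, named after their values were seen), no larger a share than the 10.2% of all names. The median log2 fold change was 0.11.

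With ATRA, LSS was called higher and PMVK lower in knockdown against control cells, and no other member was called. That is 1 of 34 (2.94%) in each direction, where 2.42% of 14281 names were called higher and 4.37% lower, so the members were called no more often than names in general. The median log2 fold change was 0.14, against 0.03 over all names, and both knockdown libraries were above both controls for 7 members, against 23.3% of names. None passed the adjustment by edgeR (lowest adjusted p 0.50), 2 had an unadjusted P under 0.05, as had 9.68% of all names, and DESeq2 placed 0 higher and 1 lower after adjustment, of 343 names in either direction. LSS was the gene called higher, at 6.07 and 5.32 CPM in scramble+ATRA and 13.8 and 11.7 in shKDM3B+ATRA (1.17 ± 0.27, adjusted p = 0.50). PMVK was called lower, at 34.5 and 26.5 CPM in scramble+ATRA and 12.8 and 14.2 in shKDM3B+ATRA (-1.16 ± 0.24, adjusted p = 0.50). Neither was called when either shKDM3B+ATRA library was left out, although the changes stayed of similar size, at 1.05 and 1.29 for LSS and within -1.34 to -0.95 for PMVK when any library was left out. In those fits without a shKDM3B+ATRA library, 0 members were called, and over all names 134 and 284 were called in place of 969.

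HMGCS1 and MSMO1, both called higher in untreated cells, overlapped between groups here. HMGCS1 was at 73.4 and 174 CPM in scramble+ATRA and 225 and 172 in shKDM3B+ATRA (0.70 ± 0.49, adjusted p = 0.68), and MSMO1 at 21.5 and 58.5 CPM against 60.3 and 57.9 (0.58 ± 0.53, adjusted p = 0.75). INSIG1 did not overlap, at 117 and 332 CPM against 334 and 367, but did not pass (0.66 ± 0.55, adjusted p = 0.72). For HMGCS1, MSMO1 and INSIG1, scramble+ATRA replicate 2 lay near the knockdown libraries and replicate 1 far below them. SCD, STARD4, FASN and LPIN1, also called in untreated cells, did not overlap here either and were not called in this fit. SCD was at 547 and 1038 CPM against 1590 and 1329 (0.90), and STARD4 at 33.1 and 72.6 against 86.7 and 80.3 (0.68). SCD was called higher by DESeq2 and without a low-count filter.

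Scramble+ATRA replicate 1 was also the ATRA library with few reads outside genes. Without it, all 3 remaining libraries had 50.02% to 51.45% of reads outside genes, and 3 members were called higher (ACACA, FASN and LSS) and 3 lower (EBP, PMVK and TM7SF2), with a median of -0.05. These are 8.82% each way, near the 8.78% and 8.19% of all names called higher and lower in that setting. Without scramble+ATRA replicate 2, 15 (44.1%) were called higher, among them HMGCS1, INSIG1, MSMO1, SCD and STARD4, and 1 (2.94%) lower, with a median of 0.47, where 23.2% of all names were called higher and 13.3% lower. In this comparison ITGAM and CYBB were again called lower and MPO higher. The 4 differentiation markers had a summed level of 2559 to 2712 CPM in scramble+ATRA and 1407 to 1739 in shKDM3B+ATRA. CD38 overlapped, at 454 and 457 CPM against 427 and 540. Of the other myeloid genes, SPI1 and CTSG were below both scramble+ATRA libraries and CEBPA and AZU1 above both, without a call. In the B cell list 1 of 3 was called lower, and the summed level was 20.8 to 24.0 CPM against 13.4 to 15.9. The part of these markers or of the reads outside genes in these results was not tested. Of the 41 further genes, 36 were tested here. Of these 1 (2.78%), the mitochondrial malonyltransferase MCAT, was called, lower at -0.83 (adjusted p = 0.51 by edgeR), where 4.37% of all names were called lower.

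With ATRA, ELOVL6, NPC1, STARD4, MSMO1 and LPIN1 were called higher in both backgrounds and LSS lower in both. In scramble cells 9 of 34 (26.5%) were called higher and 1 (2.94%) lower with ATRA, where 15.0% of 12429 names were called higher and 10.8% lower. The median was 0.61, against 0.02 over all names, and both ATRA libraries were above both untreated ones for 11 members, against 28.7% of names. In shKDM3B cells 7 (20.6%) were called higher and 2 (5.88%) lower, where 24.0% of 12756 names were called higher and 18.3% lower, so that the members' shares were below those of all names. There the median was 0.08, against 0.04 over all names, and both ATRA libraries were above both untreated ones for 15 members, against 39.1% of names. After adjustment by edgeR, 3 higher calls (8.82%) and no lower one were left in scramble cells, against 7.84% and 5.06% of all names. All 9 calls were left in shKDM3B cells, 20.6% higher and 5.88% lower, against 23.0% and 17.3% of all names. DESeq2 placed 6 higher and 1 lower in scramble cells after adjustment, of 2167 names in either direction. ATRA and untreated libraries were annotated with gene name sets of different size, and in shKDM3B cells the share of reads outside genes changed with ATRA in both replicates, so the share and the treatment cannot be told apart there. In scramble cells, the comparison with replicate 1 alone as the ATRA library, where that share was close to the untreated ones, called 8 higher and 1 lower with a median of 0.05, where 12.9% of all names were called higher and 11.7% lower. That with replicate 2 alone called 22 higher and 3 lower with a median of 0.93, where 21.4% and 17.0% of all names were. All 4 differentiation markers rose with ATRA in both backgrounds, and their summed level was 447 to 468 CPM in scramble and 2559 to 2712 in scramble+ATRA. Of the myeloid markers, MPO, CTSG and CEBPA were called lower in both, at log2 fold changes of -2.81, -5.04 and -0.89 in scramble cells, and SPI1 higher in both, at 1.39 there. The part of either list in the members' changes was not tested.

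ELOVL6, which elongates palmitate to stearate, rose most of the members with all libraries in the fit. In scramble cells without scramble replicate 2, INSIG1 (3.17) and MSMO1 (2.19) rose more than ELOVL6 (2.03). Without scramble+ATRA replicate 1, MSMO1 did (2.42 against 2.39). ELOVL6 was at 25.6 and 23.1 CPM in scramble and 81.5 and 127 in scramble+ATRA, and at 22.9 and 21.3 CPM in shKDM3B and 112 and 86.0 in shKDM3B+ATRA. The groups were far apart in both backgrounds, by 2.11 ± 0.28 (adjusted p = 0.0037) in scramble and 2.20 ± 0.17 (adjusted p = 5.8e-06) in shKDM3B cells by edgeR's quasi-likelihood test. It was called in both backgrounds under each alternative setting, with leave-one-out values of 1.73 to 2.39 and 1.98 to 2.36.

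Of the transport genes, NPC1 and STARD4 were called higher. NPC1 was at 39.3 and 52.4 CPM in scramble+ATRA and 41.0 and 46.2 in shKDM3B+ATRA, above its untreated 17.4 and 22.0 and 25.8 and 28.5. Its changes were 1.23 ± 0.26 (adjusted p = 0.022) and 0.71 ± 0.15 (adjusted p = 0.0038) by edgeR. STARD4 was at 33.1 and 72.6 CPM in scramble+ATRA and 86.7 and 80.3 in shKDM3B+ATRA, with changes of 1.45 ± 0.39 (adjusted p = 0.052 by edgeR) and 1.18 ± 0.20 (adjusted p = 0.00090). MYLIP was at 29.9 and 20.3 CPM in scramble+ATRA and 25.8 and 25.3 in shKDM3B+ATRA, and its values of -0.19 and -0.57 did not reach 1.5-fold. With library size alone, upper-quartile scaling or no low-count filter it was called lower in shKDM3B cells.

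Of the synthesis steps before squalene, ACAT2, the cytosolic thiolase at the start of the pathway, was called higher in shKDM3B cells. It was at 78.9 and 83.7 CPM in shKDM3B and 135 and 148 in shKDM3B+ATRA (0.83 ± 0.13, adjusted p = 0.00050 by edgeR), and exons of other genes cover 22.2% of its exon length. In scramble cells the change was as large, but its libraries were at 70.6 and 77.1 CPM without and 69.0 and 193 with ATRA, so that the groups overlapped (0.84 ± 0.44, adjusted p = 0.27). MVK was at 40.4 and 37.4 CPM in shKDM3B+ATRA (0.60 ± 0.16, adjusted p = 0.011 by edgeR) and at 18.9 and 42.6 in scramble+ATRA (0.83 ± 0.50, adjusted p = 0.34). HMGCS1 did not pass in either background (0.54, adjusted p = 0.46 and 0.11, adjusted p = 0.58), nor did FDFT1 (0.39, adjusted p = 0.48 and 0.05, adjusted p = 0.78). MVD, the mevalonate diphosphate decarboxylase, was called in scramble cells (0.66, adjusted p = 0.17), not in shKDM3B cells (-0.06, adjusted p = 0.78). The calls of MVK in shKDM3B and MVD in scramble cells were lost with each of the other scalings tried and by DESeq2, that of MVK also without replicate 1 of either group, and that of MVD without either scramble library or scramble+ATRA replicate 2.

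After squalene the called members went in opposite directions. MSMO1 rose by 1.88 ± 0.48 (adjusted p = 0.045) in scramble and 0.92 ± 0.15 (adjusted p = 0.00096) in shKDM3B cells by edgeR, though in scramble+ATRA its libraries were as far apart as 21.5 and 58.5 CPM. In shKDM3B cells neither MSMO1 nor ACAT2 was called with all 8 libraries in 1 fit. In scramble cells MSMO1, STARD4 and EBP were not called when either scramble library was left out, although their changes were then 1.58 and 2.19, 1.23 and 1.66, and 0.79 and 0.83, and in those fits 0 of all names were still called after adjustment by edgeR, against 1604 with both libraries. Without scramble+ATRA replicate 2 they were 0.96 for MSMO1, 0.75 for STARD4 and 0.41 for EBP, and EBP was not called. LSS, which stands a few steps before it, was lower in both backgrounds, from 44.6 and 24.4 CPM in shKDM3B to 13.8 and 11.7 with ATRA (-1.40 ± 0.28, adjusted p = 0.0026 by edgeR). In scramble cells LSS went from 9.45 and 29.2 CPM to 6.07 and 5.32 (-1.75 ± 0.52, adjusted p = 0.075), and it was not called without scramble replicate 2 (-0.73). EBP was called higher in scramble cells (0.83, adjusted p = 0.097), not in shKDM3B cells (0.27, adjusted p = 0.15), and 36.4% of its exon length is shared with another gene on the same strand.

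Among the regulators, INSIG1 was called higher with ATRA in scramble cells, from 24.8 and 103 CPM to 117 and 332 (1.82 ± 0.70, adjusted p = 0.15). It was 0.85 without scramble+ATRA replicate 2 and 3.17 without scramble replicate 2, and it was not called without scramble replicate 1 or by DESeq2. In shKDM3B cells it went from 270 and 280 CPM to 334 and 367, under 1.5-fold (0.39 ± 0.12, adjusted p = 0.022). SREBF1 was at 218 and 156 CPM in scramble+ATRA (0.78 ± 0.29, adjusted p = 0.13, not called without scramble replicate 1, without scramble+ATRA replicate 1 or with library size alone) and at 201 and 196 in shKDM3B+ATRA (0.33 ± 0.12, adjusted p = 0.038, unadjusted P under 0.05 but under 1.5-fold). SREBF2 was at 140 and 136 CPM in scramble+ATRA and 170 and 154 in shKDM3B+ATRA, and INSIG2 at 15.0 and 26.5 and at 24.5 and 25.6; neither passed. SCAP was at 108 and 80.5 CPM in scramble+ATRA and at 95.1 and 94.8 in shKDM3B+ATRA, below its untreated level there by less than 1.5-fold (-0.57, adjusted p = 0.0050 for SCAP by edgeR). In shKDM3B cells it was called lower with library size alone, upper-quartile scaling, no low-count filter or all 8 libraries in 1 fit.

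In lipogenesis ELOVL6 was joined by LPIN1, at 36.9 and 34.1 CPM in scramble+ATRA (0.92 ± 0.24, adjusted p = 0.051 by edgeR, not called without scramble replicate 1) and 54.8 and 43.2 in shKDM3B+ATRA (0.75 ± 0.16, adjusted p = 0.0042, not called without shKDM3B+ATRA replicate 1). ACACA was lower, at 39.1 and 16.9 CPM in shKDM3B and 5.71 and 9.99 with ATRA (-1.79 ± 0.40, adjusted p = 0.0048 by edgeR; -1.12 without shKDM3B replicate 1). In scramble cells ACACA went from 9.21 and 18.8 CPM to 10.4 and 2.66, the groups overlapped and the change did not pass (-1.09 ± 0.63, adjusted p = 0.32). Its lowest value rested on 29 counts, the lowest count of any of the 34 genes. FASN and ACLY were below 0 in both backgrounds without a call (-0.45 and -0.56 for FASN, -0.31 and -0.52 for ACLY), and SCD was above 0 without a call (0.64 and 0.20). In shKDM3B cells FASN was called lower with library size alone, upper-quartile scaling, no low-count filter or all 8 libraries in 1 fit. Without shKDM3B replicate 1, FASN was at -0.74 and ACLY at -0.66. In scramble cells SCD was at 0.02 without scramble replicate 1 and 1.63 without replicate 2, and was called higher with the replicate number as a block.

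**Figure D3:**
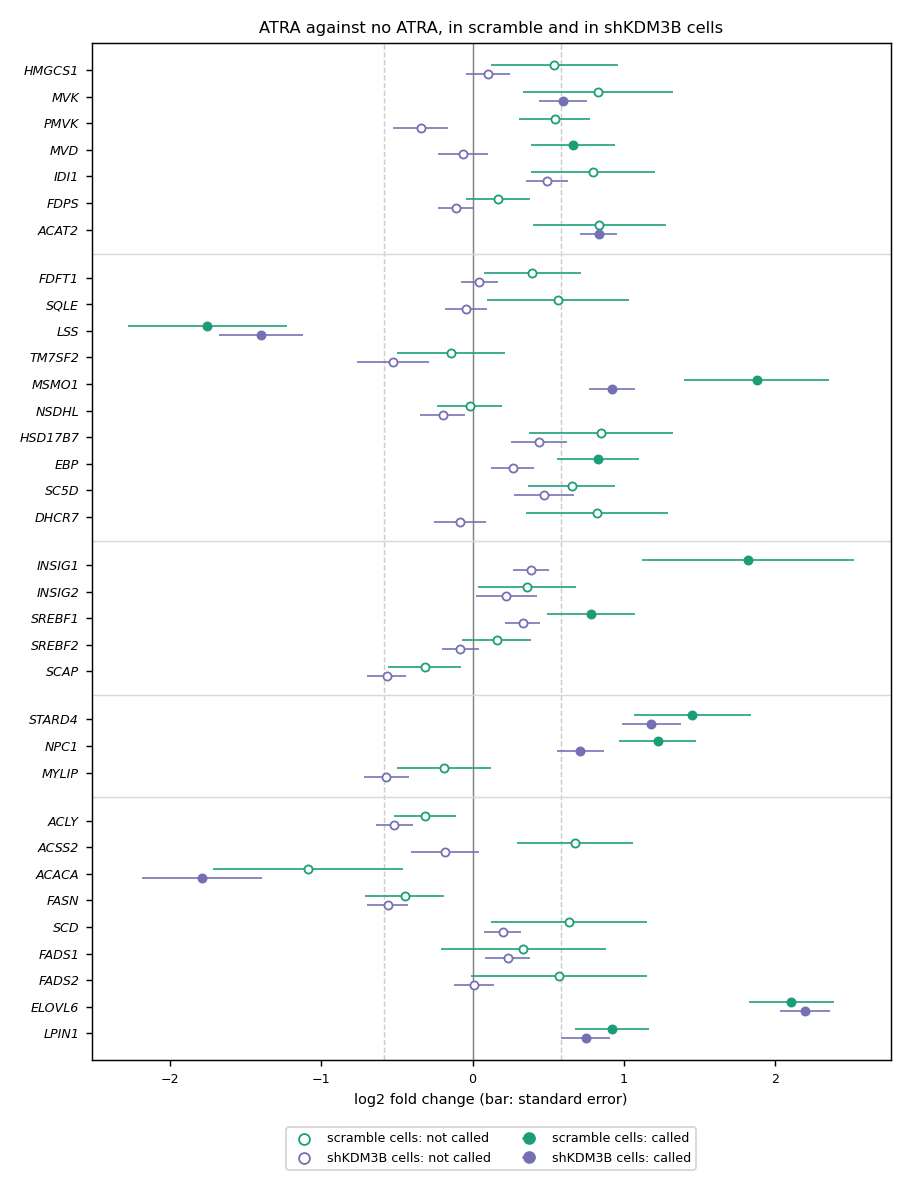
Log2 fold change with ATRA for the 34 genes in scramble (upper point of each gene) and shKDM3B cells (lower point), with bars for the standard error and dashed lines at 1.5-fold in either direction. Filled points are called. ELOVL6 lies at 2.11 and 2.20, and LSS at -1.75 and -1.40, while INSIG1 lies at 1.82 and 0.39.

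Of the 41 further genes of these pathways, 34 were tested with ATRA in each background. The shares of all names called were 15.0% higher and 10.8% lower in scramble cells and 24.0% and 18.3% in shKDM3B cells, so the calls in this list are not a result about it. In scramble cells 6 (17.6%) were called higher and 3 (8.82%) lower, led by ACSL5, an acyl-CoA synthetase (1.47, adjusted p = 0.0045 by edgeR), MLXIPL, the carbohydrate-response factor ChREBP (3.97, adjusted p = 0.0096), and ELOVL5, an elongase (1.33, adjusted p = 0.0096). In shKDM3B cells 10 (29.4%) were called higher and 4 (11.8%) lower, led by ACSL5 (1.59, adjusted p = 1.4e-05 by edgeR), ELOVL5 (1.42, adjusted p = 1.5e-05) and LBR, the sterol reductase of the nuclear envelope (1.31, adjusted p = 3.3e-05). MLXIPL remained low throughout, at most 2.20 CPM.

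The difference between the 2 ATRA responses was tested directly, as the response of shKDM3B cells minus that of scramble cells over all 8 libraries. It was called higher for 0 members and lower for 1 of 34 (2.94%), where 1.27% of 13528 names were called higher and 2.72% lower, so the share of members called lower was at that of all names. Without a low-count filter 6 (17.6%) were called lower, where 2.73% of all names were. Its median over the 34 members was -0.38, against -0.02 over all names, and 2 members were above 0 (LSS and ELOVL6). None passed the adjustment by edgeR or by DESeq2, and 1 had an unadjusted P under 0.05 by either, as had 4.49% of all names by edgeR. That member was PMVK, at 21.4 and 20.7 CPM in scramble, 34.5 and 26.5 in scramble+ATRA, 17.4 and 17.7 in shKDM3B and 12.8 and 14.2 in shKDM3B+ATRA. It was higher with ATRA in both scramble libraries and lower in both shKDM3B libraries, although neither response was called by itself (0.54, adjusted p = 0.19 and -0.34, adjusted p = 0.15), and the difference was -0.91 ± 0.26 (adjusted p = 1.00 by edgeR). PMVK is described in full after its values were seen.

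For the 4 members with the largest knockdown changes, the difference between responses did not pass and moved with single libraries. It was -1.45 ± 0.93 for INSIG1 (adjusted p = 1.00; -2.82 to -0.52 when a library was left out) and -0.97 ± 0.61 for MSMO1 (adjusted p = 1.00; -1.51 to -0.09). For SCD it was -0.45 ± 0.69 (adjusted p = 1.00; -1.46 to 0.13) and for HMGCS1 -0.45 ± 0.56 (adjusted p = 1.00; -0.94 to 0.29). Without scramble+ATRA replicate 1, 12 members were called lower, INSIG1, MSMO1 and HMGCS1 among them, where 2.89% of all names were. Without scramble replicate 2, 7 were called lower, where 3.10% of all names were. Without scramble+ATRA replicate 2, 1 was called higher (ACAT2) and 2 lower, where 8.34% and 9.03% of all names were. The 4 pairwise comparisons and this difference share libraries, so they are not separate pieces of evidence on the members.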

How the data were processed

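Libraries were made from total RNA with a TruSeq kit. The authors aligned reads to hg38 and counted them per gene, and the submitters' processing notes name HISAT2, HTSeq and DESeq2. The deposited values were raw counts, 1 file per library, with gene names in column 1. The 5 HTSeq summary lines (reads outside genes, ambiguous reads and others) stayed out of library sizes and tests. Untreated files listed 56470 names and ATRA files 56609.

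The members and lists were chosen with earlier results of these data known. Counts were tested per pair of groups with edgeR 4.0.16 in R 4.3.3 (filterByExpr, TMM scaling, quasi-likelihood fit), and the difference between ATRA responses as an interaction over all 8 libraries on shared names. P values were adjusted over all names tested by the Benjamini-Hochberg method. A call needed an unadjusted P under 0.05 and a change of at least 1.5-fold. The fitting code was tested on simulated data. Alternatives were DESeq2 1.42.0 on the same filtered names, other scalings, other low-count filters, 1 fit over all libraries, a replicate block, adjusted P values and leaving out each library. Exon lengths and overlaps came from GENCODE v44, and promoters from RefSeq on GRCh38.p14, searched with Python 3.11.15. The 12 members with the lowest P among the 21 called in a pairwise comparison, and the 5 regulators, were given with every library's value. The 34 members with counts had 29 to 43510 counts per library. Some genes of the marker lists are not reported here.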

Additional observations from a re-analysis of the deposited data

Results flagged for a closer look

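PMVK was the only member of 34 (2.94%, against 2.72% of all names called lower) for which the ATRA responses of shKDM3B and scramble cells differed by the direct test, with a difference of -0.91 on the log2 scale (adjusted p = 1.00 by edgeR, unadjusted P under 0.05). With the replicate block MVD was called lower too (2.74% of all names were), and without a low-count filter 6 members were (2.73% of all names). Scramble+ATRA replicate 2 had 50.02% of its uniquely aligned read pairs outside annotated genes, and shKDM3B+ATRA replicates 1 and 2 had 51.4% and 51.0%, against 8.49% to 9.62% in the untreated libraries. Those reads entered no comparison of the members.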

How the results depend on the processing

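With 2 libraries a group, single libraries decided many calls. Leaving out each library in turn gave, for higher and lower calls, 5 to 23 and 0 to 0 in shKDM3B against scramble (5 without scramble replicate 1, 23 without replicate 2), 0 to 15 and 0 to 3 in shKDM3B+ATRA against scramble+ATRA, 2 to 22 and 0 to 3 for ATRA in scramble, 5 to 7 and 3 to 6 for ATRA in shKDM3B cells, and 0 to 1 and 1 to 12 for the difference in response. Over all names the shares called higher and lower then ranged from 3.21% to 6.73% and 3.15% to 4.82%, 0.265% to 23.2% and 0.624% to 13.3%, 6.79% to 21.4% and 4.11% to 17.0%, 20.02% to 25.1% and 16.7% to 21.1%, and 0.868% to 8.34% and 1.12% to 9.03% in these 5 comparisons. Of the reported calls, adjusted P values left 0 higher in the untreated knockdown comparison, 0 and 0 with ATRA, 3 and 0 for ATRA in scramble cells, and 0 lower for the difference. With ATRA, shKDM3B against scramble had 2 higher calls with DESeq2 or no low-count filter and 0 with all 8 libraries in 1 fit (2.66%, 1.92% and 3.73% of all names). In the untreated knockdown comparison 13 higher calls passed the adjustment without a low-count filter, and leaving out a library left 4 to 18. Without that filter, higher and lower calls were 16 and 0 in this comparison, 13 and 2 for ATRA in scramble cells, 6 and 5 for ATRA in shKDM3B cells, and 0 and 6 for the difference, against 2.76% and 3.06%, 12.5% and 8.12%, 19.1% and 14.01%, and 1.74% and 2.73% of all names. The untreated knockdown comparison had 8 higher calls with all 8 libraries in 1 fit (2.31% of all names). ATRA in shKDM3B cells also had 5 lower calls with library size alone, 6 with upper-quartile scaling, and 4 higher and 4 lower with all 8 libraries in 1 fit. These are 14.7%, 17.6%, and 11.8% each way of the members, below the 19.7%, 20.4%, and 20.3% and 16.9% of all names. The difference in response of ACAT2, -0.02, ranged from -0.57 to 0.90 when a library was left out, and passed as a positive difference without scramble+ATRA replicate 2. The cause of these shifts was not tested. Among the values of single called members and of ACAT2 under an alternative, 371 kept their direction and side of the threshold, 60 lost the call, and 8 moved and 1 reversed, all of the latter for ACAT2.

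The replicate numbers are shared between groups but nothing says that they pair the libraries. Correlations of same-numbered deviations were 0.38 for shKDM3B and scramble, 0.02 with ATRA, -0.09 for ATRA in scramble and 0.16 for ATRA in shKDM3B cells, over 11640 to 12664 names. With the replicate number as a block, higher and lower calls were 17 and 0, 1 and 1, 12 and 1, and 7 and 2 in those comparisons, and 0 and 2 (MVD and PMVK) for the difference in response, against 4.43% and 4.53%, 1.25% and 2.42%, 13.3% and 9.90%, 24.2% and 18.5%, and 1.23% and 2.74% of all names. In the untreated knockdown comparison 15 of the 17 passed the adjustment with the block (0 of 12 without it), SREBF1 and LSS were among the 17, and 780 of all names were still called after it (3 without the block).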
